A study of Mus musculus with 6 samples.

Results

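The mitosis and spindle genes are 41 genes of cell division, chosen by name from the 23942 genes of the deposited table, and all 41 have a row in it. They were followed in group 1 innate lymphoid cells (ILC1s), lymphocytes resident in the liver that are related to natural killer cells. RNA from mouse liver was sequenced in 3 memory libraries (day 30, the treatment labelled OXA) and in 3 naive libraries (day 0, solvent). The labels give the cells as lymphocytes of the liver and spell out neither OXA nor the strain, sex or age of the mice nor the sort. Day and treatment differ together between the groups, so their effects cannot be told apart. In bulk RNA, fewer dividing cells and less RNA per dividing cell cannot be told apart either.

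A dividing cell makes these transcripts mainly from late S phase to mitosis. Cyclin-dependent kinase 1 with its cyclins starts mitosis, Aurora and Polo-like kinases and kinesin motors build the spindle, and kinetochore proteins join chromosomes to it. The anaphase-promoting complex then destroys cyclin B so that the chromosomes part and the cell divides. In resting cells most of these promoters are held silent by the DREAM complex, which reads a short element called the cell cycle genes homology region (CHR, TTTGAA), often next to CCAAT boxes read by the factor NF-Y.

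The promoters of 5 members are shown as examples of these elements in called members and in members that were not called. Top2a and Hmgb2 were called lower in memory, Mki67 had separate groups without a call, and Cdk1 and Cdc20 had changes near 0. Each line holds the 200 bases before the RefSeq start on the gene's own strand, and capitals mark TTTGAA or its complement TTCAAA and CCAAT or its complement ATTGG.
Top2a: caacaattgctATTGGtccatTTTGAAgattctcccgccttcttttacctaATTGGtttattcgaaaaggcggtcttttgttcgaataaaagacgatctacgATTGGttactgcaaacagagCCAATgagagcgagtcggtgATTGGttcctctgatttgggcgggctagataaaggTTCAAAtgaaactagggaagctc
Hmgb2: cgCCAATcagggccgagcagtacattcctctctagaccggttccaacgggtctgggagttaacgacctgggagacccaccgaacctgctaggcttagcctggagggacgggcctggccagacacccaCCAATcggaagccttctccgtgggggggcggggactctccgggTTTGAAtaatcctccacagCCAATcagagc
Mki67: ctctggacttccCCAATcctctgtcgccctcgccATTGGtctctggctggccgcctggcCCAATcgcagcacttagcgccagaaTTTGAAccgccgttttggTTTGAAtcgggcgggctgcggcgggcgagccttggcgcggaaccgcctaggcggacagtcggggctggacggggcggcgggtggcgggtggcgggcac
Cdk1: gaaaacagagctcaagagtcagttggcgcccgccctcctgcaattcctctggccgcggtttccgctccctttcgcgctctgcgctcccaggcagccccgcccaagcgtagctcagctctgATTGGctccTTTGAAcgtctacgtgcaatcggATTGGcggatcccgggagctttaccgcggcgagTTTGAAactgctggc
Cdc20: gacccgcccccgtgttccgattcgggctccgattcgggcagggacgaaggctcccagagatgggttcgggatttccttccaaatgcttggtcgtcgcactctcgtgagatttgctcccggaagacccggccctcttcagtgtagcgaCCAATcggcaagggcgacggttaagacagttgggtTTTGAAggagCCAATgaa
In GRCm38.p6 these stretches are chr8:57511643-57511842 on the plus strand (Hmgb2) and, on the minus strand, chr11:99024190-99024389 (Top2a), chr7:135716380-135716579 (Mki67), chr10:69352913-69353112 (Cdk1) and chr4:118437344-118437543 (Cdc20). The CHR letters nearest to the start begin 23 bases before it in Top2a, 30 in Hmgb2, 98 in Mki67, 15 in Cdk1 and 18 in Cdc20. RefSeq promoter windows of 300 bases (250 before and 50 after the start, both strands searched) were found for 34 of the 41 members. TTTGAA was in 28 of their 36 windows (77.8%), against 17.9% of all 32851 windows, and CCAAT was in 27 (75.0%), against 37.4% of all windows. Of the 42 windows of DNA replication genes, 9.52% held TTTGAA and 64.3% held CCAAT. The median log2 change was -0.17 for the 25 tested members with TTTGAA in a window and -0.20 for the 8 without it. A match of letters is not evidence of binding, and Stmn1 and Tpx2, 2 members that were lower in memory, are named only.

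The libraries held 18697093 to 23795266 reads, recovered from the steps of the deposited RPKM values (reads per kilobase of exon, scaled to the library total). ILC1 markers were abundant in both groups. Over 13 genes they summed to 1651 to 1718 RPKM in memory and 1587 to 1714 RPKM in naive libraries, with 1 called lower and none higher. The macrophage and monocyte list was higher in memory, with 13 of 18 tested genes called, and summed to 613 to 641 RPKM in memory against 129 to 136 RPKM in naive libraries. Of all genes tested, 3.2% were called higher and 0.972% lower. Lyz2, the lysozyme of myeloid cells, made up most of the memory sum. It averaged 448 RPKM in memory and 37.8 RPKM in naive libraries. Ccr2, the next highest of the list, averaged 67.9 and 66.2 RPKM and was not called (limma adjusted p = 0.642). Hepatocyte markers summed to 183 to 206 RPKM in memory and 65.8 to 68.9 RPKM in naive libraries (3 of 8 called higher). Most of this sum was Apoe, which averaged 154 RPKM in memory and 39.8 RPKM in naive libraries. Trf, the next highest, averaged 23.2 and 21.8 RPKM and was not called (limma adjusted p = 0.461). NK cell markers summed to 80.4 to 82.7 RPKM in memory and 65.8 to 70.4 RPKM in naive libraries (5 of 9 called higher and 1 lower). The 1 called lower was the highest of them, Klra9, at 24.6 RPKM in memory and 31.6 RPKM in naive libraries (limma adjusted p = 0.0107). Irf8, the next highest, was called higher, at 21.4 and 17.5 RPKM (limma adjusted p = 0.0321). With 1 library left out, Klra9 lost the call without memory replicate 2 or 3, and Irf8 kept it only without memory replicate 3. Of 5 erythroid markers tested, 1 was called lower, Hba-a2 (limma adjusted p = 0.0255, kept only without naive replicate 3 when 1 library was left out). The 6 erythroid markers summed to 64.9 to 71.7 RPKM in memory and 79.5 to 102 RPKM in naive libraries. Klf1, the defining factor of red cell precursors, was at 0 to 0.0549 RPKM in memory and 0 to 0.0321 RPKM in naive libraries. T cell markers summed to 291 to 314 RPKM in memory and 313 to 361 RPKM in naive libraries. Most of this sum was Trbc1 (174 and 192 RPKM in memory and naive libraries) and Trbc2 (90.6 and 99.3 RPKM). Neither was called (limma adjusted p = 0.379 and 0.359). Of 8 tested genes, 5 had a negative change and 3 a positive one (Cd3d, Cd4 and Cd28). The 2 called lower were Cd3g (16.4 RPKM in memory and 20.8 RPKM in naive libraries) and Lat (13.8 and 17.6 RPKM). Cd8a, Cd8b1 and Cd5 were under 0.5 RPKM in every library. The part of these other cells in the results below was not tested.

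A minority of the mitosis and spindle genes, Stmn1, Tpx2, Top2a and Hmgb2, were called lower in the memory libraries, and the others did not pass the test. Summed over the 41 members, their level was 604, 604 and 591 RPKM in memory libraries and 722, 701 and 704 RPKM in naive libraries, so that memory held 84.6% of the naive mean. Hmgb2 alone made up 54.7% to 57.7% of that sum, and without it memory held 80.8% of the naive mean. The 37 members other than the 4 called summed to 182 to 189 RPKM in memory and 213 to 216 RPKM in naive libraries (86.1%). Of 40 members tested, 4 were called lower (Stmn1, Tpx2, Top2a and Hmgb2) and none higher, where 0.972% of all 13793 genes tested were called lower, 3.2% higher and 4.17% in either direction. Called means an adjusted p under 0.05 in limma on log2(RPKM + 1). At an unadjusted p under 0.05, 15 members were lower and none higher (6.29% and 11.2% of all genes), and voom on the recovered reads, an alternative test, called 13 lower and none higher (2.52% and 5.76% of all genes). The change was negative in 34 of 40 members, against 45.4% of all genes tested, and its median was -0.16, against 0.02 over all genes. In 17 members every memory library lay below every naive one (9.24% of all genes did so), and in none did every memory library lie above (14.9% of all genes).

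**Figure D1:**
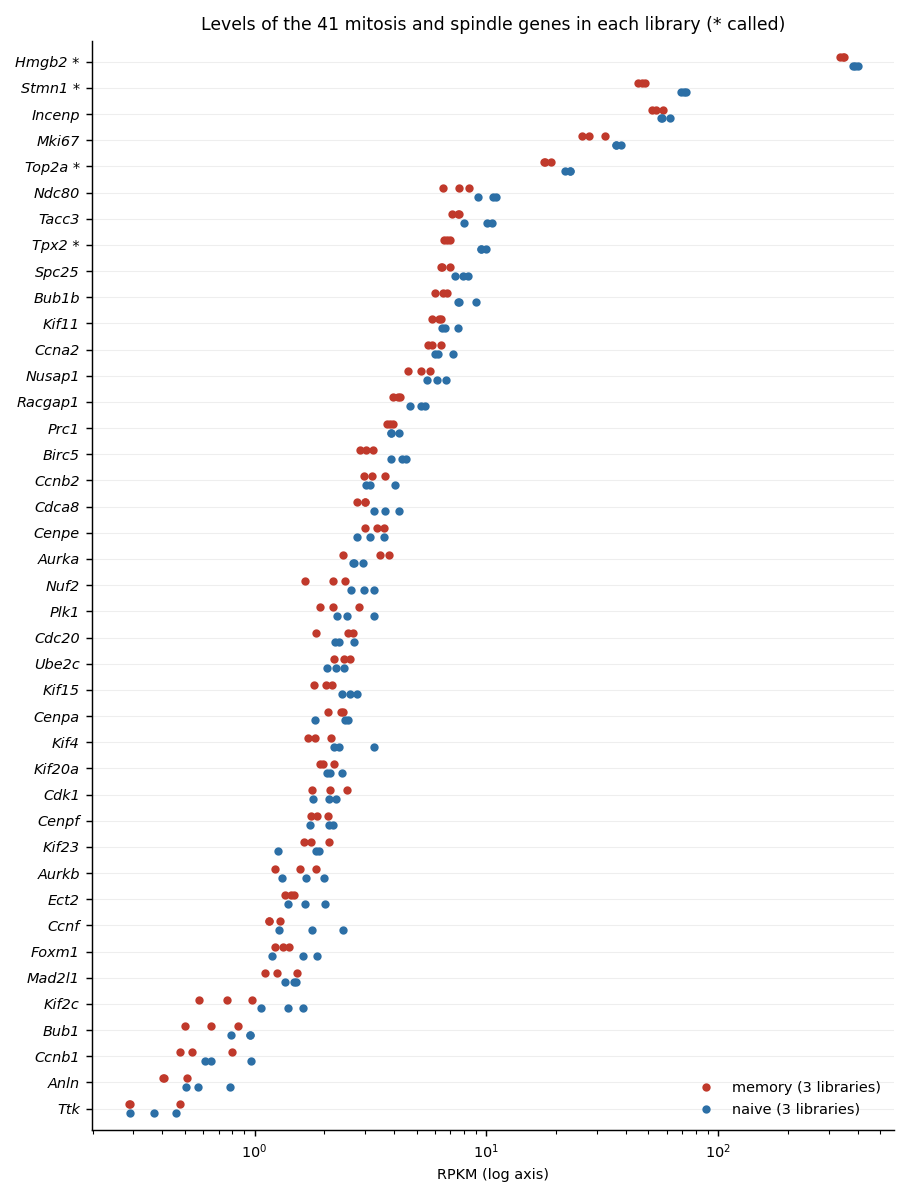
RPKM of the 41 mitosis and spindle genes in each library on a log axis, with the 3 memory libraries as red points above the 3 naive libraries as blue points in each row, and an asterisk for called members. Stmn1 shows a wide gap between the groups near the top, Hmgb2 and Top2a show narrow ones, and most genes under 5 RPKM show mixed points.

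The genes of chromatin, microtubules and transcription held the largest amounts of RNA. Stmn1 encodes stathmin, which binds tubulin and takes microtubules apart until mitotic kinases switch it off (chromosome 4, 134468320 to 134473843, mm10). It was at 44.9, 48.4 and 47.0 RPKM in memory libraries and at 72.4, 71.0 and 69.2 RPKM in naive libraries. The highest memory library lay well below the lowest naive one. Memory held 66.0% of the naive mean, and the log2 change was -0.59 (SE 0.04, limma adjusted p = 0.000555), the largest in size of any member on the log2(RPKM + 1) scale. Hmgb2, an abundant protein that bends DNA (chromosome 8, 57511907 to 57515999), was at 344, 348 and 336 RPKM in memory and at 401, 383 and 390 RPKM in naive libraries. This gap was narrower, at 87.7% of the naive mean, but exceeded the spread of both groups (log2 change -0.19, SE 0.03, limma adjusted p = 0.0252).

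Top2a encodes topoisomerase II alpha, which untangles sister chromatids (chromosome 11, 98992943 to 99024189). It was at 19.1, 17.8 and 17.9 RPKM in memory and at 22.8, 21.8 and 23.0 RPKM in naive libraries, again with separate groups (log2 change -0.29, SE 0.05, limma adjusted p = 0.0226). The calls of Top2a and Hmgb2 were fragile: leaving out 1 library at a time, Top2a stayed called in 1 of 6 fits, the one lacking memory replicate 1 (limma adjusted p 0.0414 to 0.0978), and Hmgb2 lost it in all 6 (0.0653 to 0.0886). Scaling by the ILC1 markers also ended both calls (limma adjusted p = 0.0709 and 0.0982), and fitting all genes with no filter ended that of Hmgb2 (limma adjusted p = 0.0576). Stmn1 and Tpx2 kept theirs in every alternative run.

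Mki67 encodes Ki-67, the coat of mitotic chromosomes that pathologists stain to find dividing cells (chromosome 7, 135689784 to 135716361). It was at 27.7, 25.8 and 32.4 RPKM in memory and at 36.1, 38.0 and 36.2 RPKM in naive libraries. Although the groups were separate, memory replicate 3 lay nearer to the naive libraries, and the change was not called (log2 change -0.36, SE 0.08, limma adjusted p = 0.0669). Without memory replicate 3 it was called (limma adjusted p = 0.0174), and voom on the recovered reads called it too (adjusted p = 1.22e-05). Foxm1, the transcription factor that drives genes of late cell cycle, was scarce, at 1.32 ± 0.0958 RPKM in memory and 1.55 ± 0.338 RPKM in naive libraries (SD, n = 3 each), with overlapping groups (log2 change -0.13, SE 0.13).

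**Figure D2:**
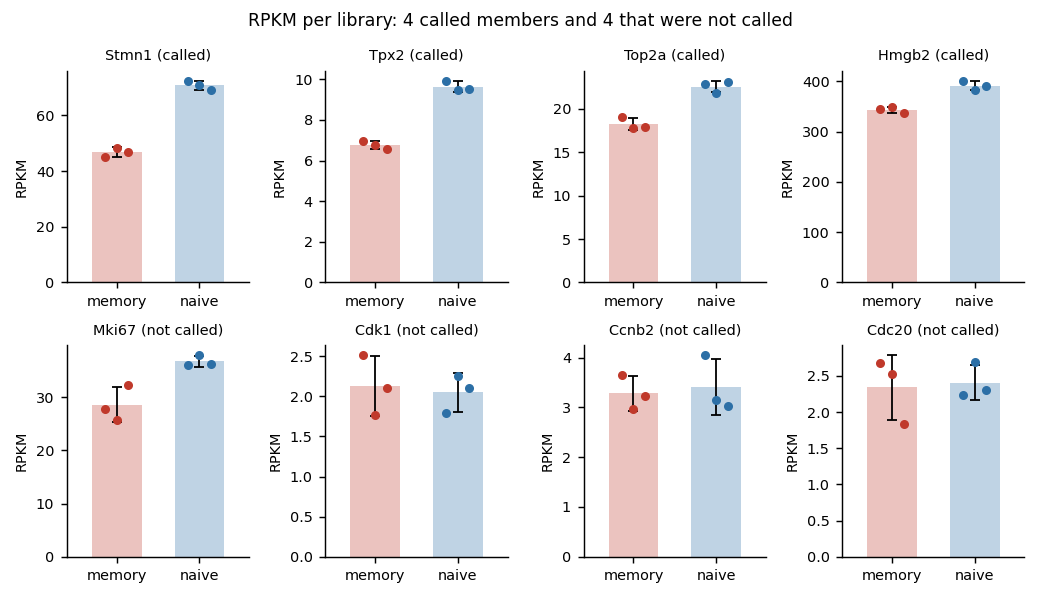
RPKM per library for the 4 called members and for Mki67, Cdk1, Ccnb2 and Cdc20, with memory in red left of naive in blue; bars are means, error bars are SD and points are the 3 libraries of each group. The groups are separate in the 4 called members and in Mki67, and they overlap in Cdk1, Ccnb2 and Cdc20.

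Genes of spindle assembly and cytokinesis had a negative change in all 7 members, and 1 was called. Tpx2, which activates Aurora A and seeds spindle microtubules near chromosomes (chromosome 2, 152847964 to 152895321), was at 6.97, 6.78 and 6.55 RPKM in memory libraries and at 9.93, 9.47 and 9.51 RPKM in naive libraries. The replicates of each group lay close together and far from the other group (log2 change -0.45, SE 0.06, limma adjusted p = 0.00654). Racgap1, a subunit of the centralspindlin complex of the cleavage site, was at 4.24, 4.16 and 3.95 RPKM in memory and at 4.66, 5.42 and 5.22 RPKM in naive libraries (limma adjusted p = 0.150). Tacc3, which with clathrin bundles spindle fibres, was at 7.55, 7.63 and 7.09 RPKM in memory and at 10.1, 7.99 and 10.6 RPKM in naive libraries, with naive replicate 2 close to the memory libraries (limma adjusted p = 0.174, and 0.0452 without that library). Nusap1, Anln, Ect2 and Prc1, which encode a spindle crosslinker, the scaffold anillin, the activator of the cleavage furrow and the crosslinker of the central spindle, had overlapping groups and log2 changes of -0.21, -0.17, -0.14 and -0.05. Summed over the 7 genes, memory held 79.5% of the naive mean, the lowest share of the 8 role groups.

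No kinetochore gene among the members was called. The NDC80 complex, the arm that grips microtubules, has 3 of its subunits among the members, and each had all memory libraries below all naive ones. Ndc80 was at 6.48, 7.64 and 8.45 RPKM in memory and at 11.0, 10.7 and 9.18 RPKM in naive libraries (log2 change -0.41, SE 0.11, limma adjusted p = 0.0992). Spc25 was at 6.97, 6.46 and 6.40 RPKM in memory and at 8.32, 7.91 and 7.33 RPKM in naive libraries (limma adjusted p = 0.164). Nuf2 averaged 2.09 ± 0.406 RPKM in memory and 2.95 ± 0.330 RPKM in naive libraries (SD, n = 3 each, limma adjusted p = 0.207). Spc24, the fourth subunit of the complex, from the list of other kinetochore genes, averaged 5.08 and 6.80 RPKM in memory and naive libraries (limma adjusted p = 0.0816). Cenpa, the histone that marks centromeres, averaged 2.28 and 2.27 RPKM, the motor Cenpe 3.32 and 3.19 RPKM, and Cenpf 1.89 and 2.00 RPKM in memory and naive libraries. Cenpa, Cenpe and Cenpf had overlapping groups, and the 95% interval of the log2 change ran from -0.27 to 0.29 for Cenpa, from -0.20 to 0.30 for Cenpe and from -0.30 to 0.19 for Cenpf, and the difference between them and the NDC80 genes was not tested.

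The chromosomal passenger complex, which corrects faulty attachments and triggers cleavage, carries Aurora B on the subunits encoded by Incenp, Birc5 and Cdca8. Birc5 (survivin) was at 3.25, 2.85 and 3.04 RPKM in memory and at 4.34, 4.49 and 3.89 RPKM in naive libraries. It missed the threshold despite separate groups (log2 change -0.37, SE 0.08, limma adjusted p = 0.0647, and 0.0305 by voom on the recovered reads). Cdca8 (borealin) was at 2.99, 2.99 and 2.77 RPKM in memory and at 3.65, 4.18 and 3.29 RPKM in naive libraries (limma adjusted p = 0.215). Incenp, the scaffold of the complex, stood apart in level, at 57.8, 53.8 and 51.8 RPKM in memory and at 57.3, 57.0 and 62.0 RPKM in naive libraries. Its groups overlapped, and its log2 change of -0.11 (SE 0.06) was not called (limma adjusted p = 0.379). Per kilobase of exon, Incenp RNA was thus far more abundant than that of the other subunits, and Aurkb, the kinase itself, averaged 1.55 and 1.66 RPKM in memory and naive libraries.

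**Figure D3:**
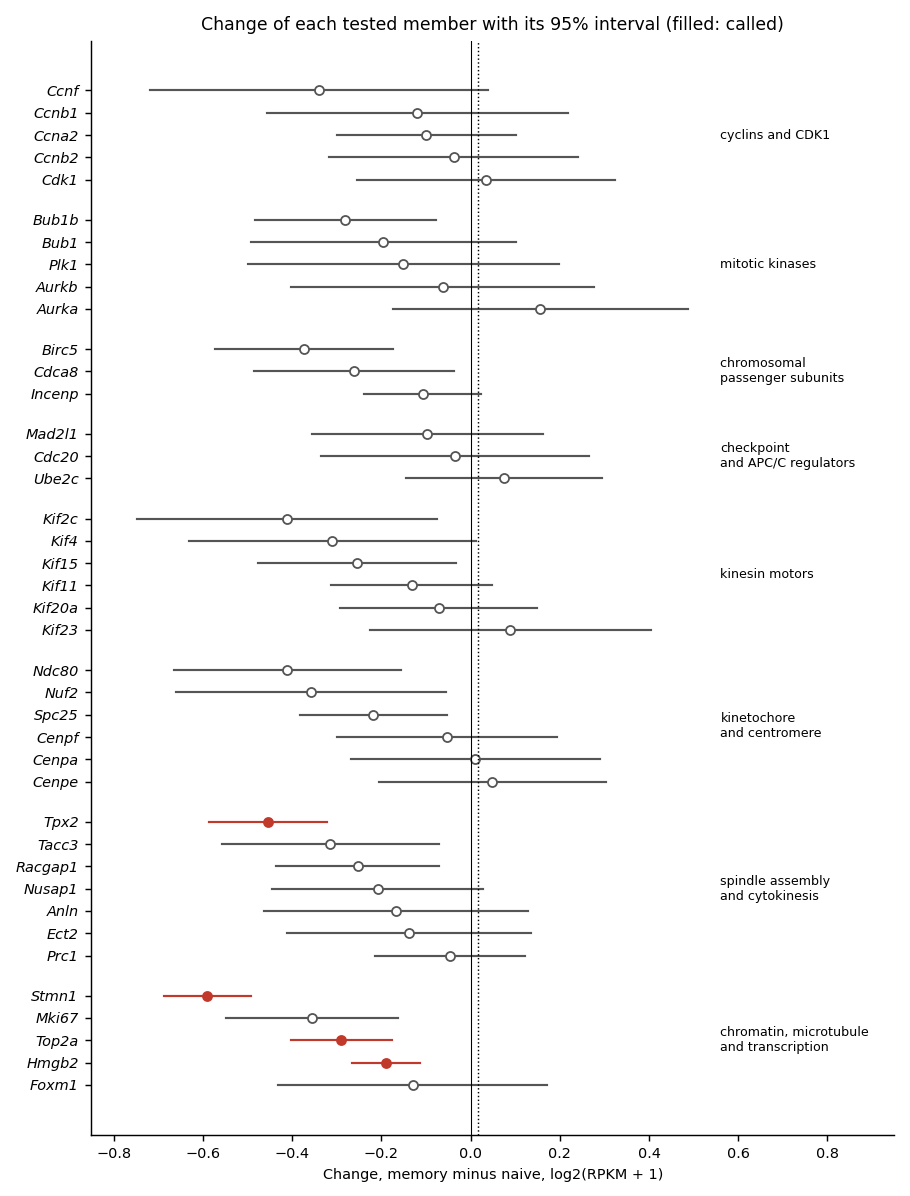
Change of each of the 40 tested members, memory minus naive in log2(RPKM + 1), with its 95% interval, grouped by role; filled red points are called, the solid line is 0 and the dotted line is the median of all genes. The 4 called members lie at -0.59 to -0.19, and the intervals of Cdk1, Ccnb2, Cdc20, Ube2c, Cenpa and Cenpe span 0.

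Kinesin motors ranged widely. Kif2c, a motor that shortens microtubules at centromeres, was at 0.971, 0.578 and 0.762 RPKM in memory and at 1.40, 1.61 and 1.06 RPKM in naive libraries, or 56.8% of the naive mean. This was the lowest share of any member, but it rested on 60 to 143 reads per library and was not called (limma adjusted p = 0.193). By voom, its log2 change of -0.83 (adjusted p = 0.0310) was larger than the -0.60 of Stmn1. Kif15, which helps to keep spindle poles apart, was at 1.80, 2.03 and 2.16 RPKM in memory and at 2.76, 2.57 and 2.39 RPKM in naive libraries (limma adjusted p = 0.222). Kif4, a chromosome-bound motor, averaged 1.88 and 2.60 RPKM and Kif11 (Eg5), the main motor of pole separation, 6.16 and 6.85 RPKM in memory and naive libraries, both with separate groups and no call. Kif20a and Kif23, motors of cytokinesis, averaged 2.03 and 1.82 RPKM in memory and 2.18 and 1.66 RPKM in naive libraries, with overlapping groups.

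Mitotic kinases other than Bub1b did not separate the groups. Bub1b (BubR1), a checkpoint protein, was at 6.77, 5.98 and 6.52 RPKM in memory and at 7.52, 8.98 and 7.59 RPKM in naive libraries (log2 change -0.28, SE 0.09, limma adjusted p = 0.151). Its partner Bub1 was at 0.649, 0.502 and 0.845 RPKM in memory and at 0.958, 0.790 and 0.956 RPKM in naive libraries, where memory replicate 3 lay above naive replicate 2 (limma adjusted p = 0.483). Aurka (Aurora A) averaged 3.23 ± 0.732 RPKM in memory and 2.76 ± 0.153 RPKM in naive libraries (SD, n = 3 each), and its positive log2 change of 0.16 was the highest of any member (SE 0.14, limma adjusted p = 0.629). Plk1 averaged 2.31 and 2.67 RPKM in memory and naive libraries. Ttk (MPS1), the kinase at the head of the checkpoint, was the 1 member below the filter of 0.5 RPKM and was not tested, at 0.352 ± 0.110 RPKM in memory and 0.373 ± 0.0856 RPKM in naive libraries (SD, n = 3 each, 28 to 50 reads per library).

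No gene of Cdk1 and its cyclins was called. Cdk1 was at 2.51, 1.77 and 2.11 RPKM in memory and at 1.79, 2.25 and 2.10 RPKM in naive libraries, with a log2 change of 0.03 and a 95% interval of -0.25 to 0.32. Ccnb1 averaged 0.604 and 0.742 RPKM and Ccnb2 3.28 and 3.41 RPKM in memory and naive libraries. These cyclin B genes had intervals of -0.46 to 0.22 and -0.32 to 0.24. Ccna2, the cyclin of S phase and early mitosis, was at 5.63, 6.39 and 5.82 RPKM in memory and at 7.15, 6.21 and 5.98 RPKM in naive libraries. Ccnf, a cyclin that serves as a ubiquitin ligase subunit, was at 1.15, 1.29 and 1.15 RPKM in memory and at 2.42, 1.27 and 1.77 RPKM in naive libraries, where the naive replicates themselves spread widely (limma adjusted p = 0.337). None of these 5 genes had separate groups.

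The regulators of the anaphase-promoting complex had levels within the spread of the libraries in both groups. Cdc20, its activator, averaged 2.34 ± 0.446 RPKM in memory and 2.41 ± 0.242 RPKM in naive libraries (SD, n = 3 each), and the interval of the log2 change was -0.33 to 0.26. Ube2c, the ubiquitin-conjugating enzyme that works with it, was at 2.21, 2.59 and 2.44 RPKM in memory and at 2.06, 2.42 and 2.24 RPKM in naive libraries (interval -0.14 to 0.30). Mad2l1, the checkpoint protein that holds Cdc20 back, was at 1.25, 1.52 and 1.10 RPKM in memory and at 1.48, 1.51 and 1.35 RPKM in naive libraries (interval -0.36 to 0.16). Summed, memory held 99.2% of the naive mean of these 3 genes. The intervals of Cdc20 and Mad2l1 hold the log2 change of Top2a, -0.29.

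The members were also split by level. All 13 members with a mean of at least 5 RPKM had a negative log2 change (median -0.28), of which 4 were called. In 10 of the 13 every memory library lay below every naive one and in none above. All genes of at least 5 RPKM had a median of 0.00 and 48.7% negative changes, with 12.4% separate and lower and 15.1% separate and higher. Of these 7300 genes, 114 were called lower and 210 higher. The 27 tested members under 5 RPKM had a median of -0.12, and 21 were negative and none called. The 6493 genes tested under 5 RPKM had a median of 0.04 and 41.7% negative changes, with 20 called lower and 231 higher. The higher members had the lower median. Single members departed from this: Incenp, among the most abundant, had a log2 change of -0.11, and the scarce Kif2c one of -0.41. The scale adds 1 to each value and so shrinks the changes of low genes. By voom on the recovered reads, the medians were -0.30 for the higher and -0.20 for the lower members. Reads behind a member ran from 28 for Ttk to 24892 for Hmgb2 in a library, so low members were measured with more counting error. The difference between the sets of high and low members was not tested.

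**Figure D4:**
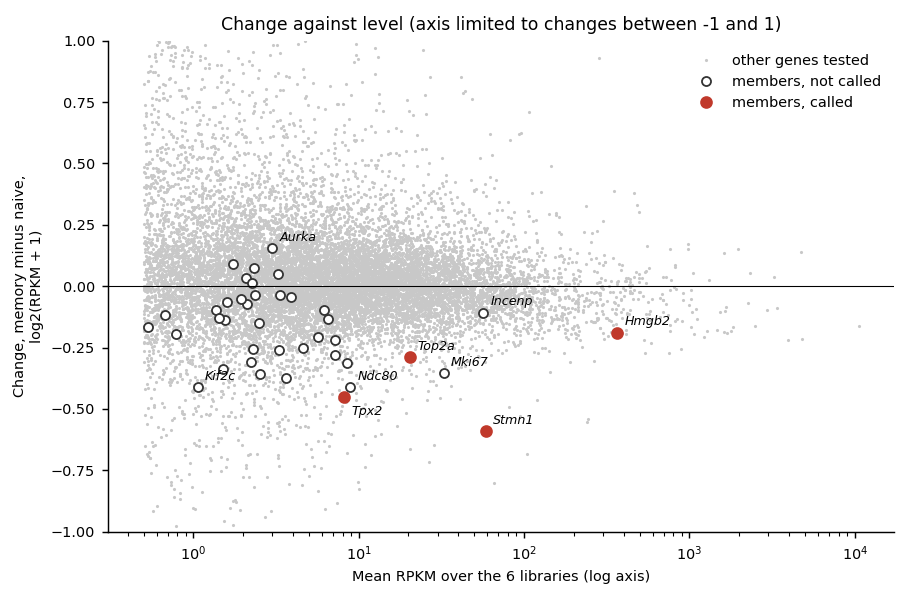
Change of each tested gene, memory minus naive in log2(RPKM + 1), against its mean RPKM over the 6 libraries on a log axis; grey points are other genes, open circles are members that were not called and red circles are called members. All members of at least 5 RPKM lie below 0, and the vertical axis is limited to changes between -1 and 1.

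Other genes of mitosis, drawn from lists of the same pathway, had few calls by limma. Of all genes tested, limma called 0.972% lower and 3.2% higher, and voom called 2.52% lower and 5.76% higher. Of 31 other kinetochore and centromere genes tested, 21 were negative and 1, Cenpk, was called lower (1.42 ± 0.138 RPKM in memory and 2.49 ± 0.214 RPKM in naive libraries, SD, n = 3 each, log2 change -0.53, limma adjusted p = 0.0341, lost without any 1 of the 6 libraries). At an unadjusted p under 0.05, 10 of these kinetochore genes were lower and 1 higher, and voom called 5 lower. Of 30 other spindle and cytokinesis genes 23 were negative, of 22 other mitotic regulators 13, of 18 condensin and cohesin genes 16, and of 14 core subunits of the anaphase-promoting complex 11, with no call in either direction and medians of -0.13, -0.05, -0.12 and -0.08. In these 4 lists 5, 4, 6 and 1 genes were lower, and none higher, at an unadjusted p under 0.05, where 6.29% of all genes were lower and 11.2% higher, and voom called 2, 1, 5 and 0 lower. The 14 subunits of DREAM, MuvB and NF-Y, which bind the promoter elements shown above, divided evenly at 7 negative and 7 positive, with none called by limma and 1 each way by voom.

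Tubulins, on which stathmin acts, moved in both directions. Tuba1b averaged 35.4 RPKM in memory and 44.9 RPKM in naive libraries (log2 change -0.33, limma adjusted p = 0.00944) and Tubb5 averaged 52.2 and 64.8 RPKM in memory and naive libraries (-0.31, limma adjusted p = 0.0150). Tubb6 was higher, at 44.4 RPKM in memory and 38.0 RPKM in naive libraries (0.22, limma adjusted p = 0.0173). With 1 library left out, Tuba1b lost the call without memory replicate 2, Tubb5 kept it only without memory replicate 1, and Tubb6 lost it in all 6. Tubulin genes are close relatives whose reads may be shared.

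DNA replication genes, which act earlier in the cycle, had more calls than the mitosis genes. Of 44 tested, 13 were called lower and none higher, where 0.972% of all genes were called lower and 3.2% higher. The change was negative in 40 of the 44, against 45.4% of all genes. Its median was -0.24, against -0.16 for the mitosis and spindle genes. The 13 calls became 21 by voom, which called 2.52% of all genes lower and 5.76% higher. They became 7 without memory replicate 2, and 8 without memory replicate 3, naive replicate 1 or naive replicate 2. Chaf1a, a histone chaperone of replication forks, averaged 9.73 RPKM in memory and 15.4 RPKM in naive libraries, and Clspn, the fork protein claspin, 5.21 and 8.41 RPKM. The helicase subunits Mcm6 and Mcm7 averaged 23.4 and 17.8 RPKM in memory and 30.9 and 24.1 RPKM in naive libraries. Typical levels differed too, with a median over genes of 7.21 RPKM for replication genes and 2.76 RPKM for the tested mitosis and spindle genes. Of 17 tested G1 cyclins, CDKs and CDK inhibitors, 12 were negative and none was called, with 4 lower and 2 higher at an unadjusted p under 0.05 (6.29% and 11.2% of all genes) and 2 lower and 1 higher by voom. The difference between these lists was not tested.

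**Figure D5:**
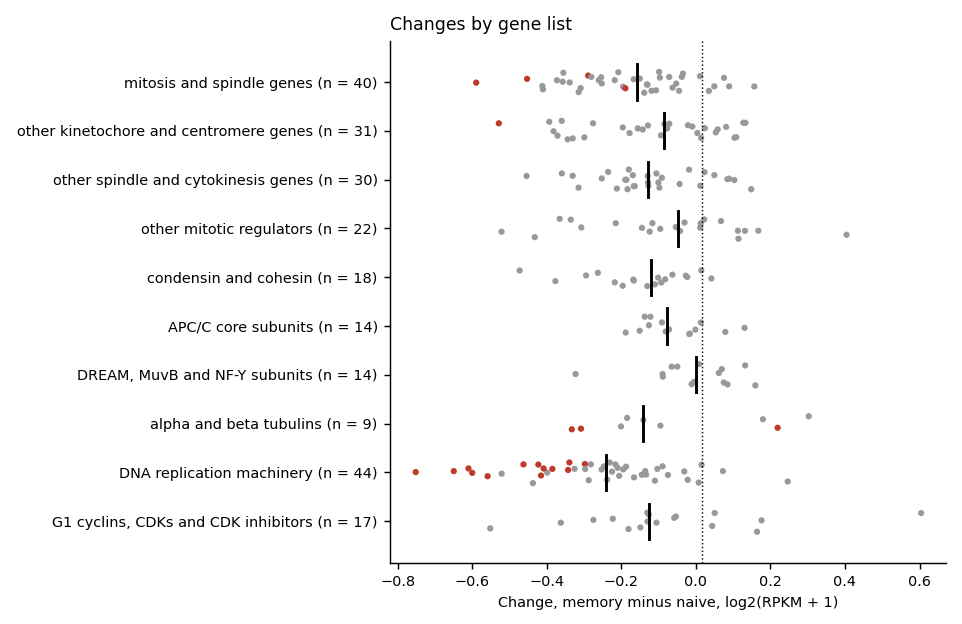
Change of each tested gene, memory minus naive in log2(RPKM + 1), by gene list; red points are called, black bars are list medians and the dotted line is the median of all genes. The medians lie at -0.16 for mitosis and spindle genes, -0.24 for DNA replication genes and 0.00 for the DREAM, MuvB and NF-Y subunits.

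Counting limits touch some members. In GENCODE M21, 10 of the 41 members share 53 to 1271 exon bases with another protein coding gene, 9 of them with one on the opposite strand, and the most shared is Kif20a with Cdc23. Of the called members, Top2a shares 122 bases with a small nucleolar RNA gene and Stmn1 shares 66 bases with a microRNA gene. Sources used here do not give the strand setting of the counting, and reads of such pairs could count for either gene or be lost from both.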

How the data were processed

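RNA from 3 memory and 3 naive libraries was analysed from 1 table of RPKM values that the authors deposited. Per the submitters' processing notes, the tools included edgeR 3.12.1, Subread 1.5.1 with featureCounts, and STAR 2.5.3a. The genome was mm10, and no roles are stated there. Whole reads were recovered for 100% of values, within 0.001 of a read. Of counts from 1 to 10, 69.8% to 72.3% were even, a pattern that counting each mate separately would give, in which case molecules were fewer than reads.

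The test was limma-trend (limma 3.58.1, R 4.3.3) on log2(RPKM + 1), memory minus naive, for the 13793 genes averaging 0.5 RPKM or more, adjusted over all of them by Benjamini-Hochberg at 0.05. On simulated counts it called 2 of 21 changes of 1.5-fold at 0.5 to 2 RPKM and 65 of 78 at 2 RPKM or more. Of 2-fold changes it called 14 of 23 and 73 of 73, and of unchanged genes 11 of 13605. A missing call at the lower level thus says little. Changes smaller than 1.5-fold were not simulated, so a missing call at 2 RPKM or more does not exclude them. The simulated counts lacked the even pattern described above, so they may hold less counting error than these libraries. Intervals are limma's at 95%. The labels do not say whether replicates are separate animals, so p-values cover only the spread between these libraries. Alternatives were pseudocounts of 0.1 and 0.5, a filter of 2 RPKM, no filter, median ratio scaling, quantile normalization, scaling by ILC1 markers, voom on recovered reads, the replicate number as a block, and each library left out. Every member is given; per-library values are for called members, the 5 highest, and up to 2 per role by smallest p, with Nuf2, Tacc3, Cdk1 and Spc24 added after their values were seen. Non-members are called list members (up to 4 by p), markers of high level, and the genes closest in profile. The erythroid genes Hba-a2 and Klf1 and the T cell genes Cd3d, Cd3g, Cd4, Cd28, Lat, Cd8a, Cd8b1 and Cd5 were added after their values were seen. Members and lists were chosen with earlier results of these data known. Promoters came from RefSeq (GRCm38.p6). Python 3.11.15 and matplotlib 3.10.9 drew the figures.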

Additional observations from a re-analysis of the deposited data

How the results depend on the processing

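The count of members called lower was 4. It was 13 by voom on the recovered reads, 2 with scaling by the ILC1 markers and 2 to 3 without 1 library. Other scalings, pseudocounts and filters gave 3 to 5, and no alternative called a member higher. Over all genes, 441 were called higher and 134 lower. Those counts were 794 and 347 by voom, 286 higher with a filter of 2 RPKM, 87 lower with no filter, 79 lower with scaling by the ILC1 markers, and 234 to 310 higher and 41 to 77 lower without 1 library. Causes were not tested. Same-numbered libraries did not deviate together (correlations -0.084, -0.0395 and -0.00297). This shows no sign of pairing by number, but with 3 libraries per group it cannot exclude it. With the replicate block, 229 genes were called higher and 42 lower, with 2 members lower (Stmn1 and Tpx2) and 6 replication genes lower. Changes near 0 turned sign: under quantile normalization Cdk1 was at -0.0314, Cenpa at -0.0494 and Cenpe at -0.00808, and under median ratio scaling Cenpa was at -0.00465. Without 1 library the log2 change ran from -0.0524 to 0.12 for Cdk1, -0.10 to 0.064 for Ccnb2, -0.16 to 0.0304 for Aurkb, -0.11 to 0.0794 for Cdc20, -0.0241 to 0.15 for Kif23, -0.0931 to 0.0693 for Cenpa and -0.0241 to 0.12 for Cenpe, none of them called. The median change of the members stayed between -0.23 and -0.15 in every alternative, against -0.02 to 0.03 over all genes.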

Other observations

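Outside the members, 5 genes followed the summed level of the mitosis and spindle genes most closely over the 6 libraries, among 10328 genes of at least 2 RPKM. Pearson correlations on the log2(RPKM + 1) scale were 0.994 to 0.997, and since the libraries form 2 groups they reflect mainly the difference between the groups. The kinase gene Akt2 averaged 11.2 RPKM in memory and 12.4 RPKM in naive libraries and was not called (limma adjusted p = 0.179). Chaf1a, a histone chaperone of replication, averaged 9.73 and 15.4 RPKM in memory and naive libraries. The kinase-like gene Styk1 averaged 11.2 and 13.5 RPKM and the thioesterase gene Acot7 114 and 130 RPKM in memory and naive libraries, and both lost their call in every fit that left out a library (limma adjusted p up to 0.124 and 0.0937). Rn7s1, a gene of 7S RNA, averaged 9.57 RPKM in memory and 418 RPKM in naive libraries, a log2 change of -5.27 (limma adjusted p = 3.28e-05), so a close profile does not mean a like size of change.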
